A study of Mus musculus with 6 samples.

Results

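The data here concern the splicing events listed in Tnrc6a, Cnot4 and Cpeb1, 3 mouse genes whose proteins act on messenger RNA that is being silenced. The cells were P19, a stem-cell-like line from a mouse embryonal carcinoma, with 3 samples transfected with a control small interfering RNA and 3 transfected with a pool of such RNAs against SFPQ. SFPQ (gene Sfpq) is a nuclear RNA-binding protein first known as a splicing factor. The study sequenced RNA to ask whether Sfpq acts on microRNA targeting through alternative splicing or polyadenylation sites. For the 3′UTRs where Sfpq directly promotes such targeting, it reported no role of Sfpq in either. The study deposited 3 lists of events, numbered by replicate, that differed between control and knockdown (270, 264 and 257 distinct events). The members were chosen from these lists: any listed interval inside the locus of one of these genes that matched its exon edges. This gave 4 events of 643 distinct events, in 3 of the 580 genes with an event. For scale, an event in any list was found for 2.80% of protein-coding genes with several exons. Because being listed is what selected them, that they are listed is not a finding. The lists hold a position and a type, with no read count, inclusion level or direction. The depth behind an event is therefore unknown, and no event can be called more included or more skipped after knockdown. Of the listed events 0 lay in Sfpq. The lists hold no expression values, so neither the knockdown nor the cell type could be checked from them. In the sources used here, nothing says how control and knockdown libraries were set against each other for a list, or whether each number marks its own culture.

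MicroRNAs guide Argonaute proteins to mRNA. Tnrc6a encodes a GW182 protein, the scaffold that binds Argonaute through its glycine and tryptophan repeats and recruits deadenylases through its C-terminal silencing domain. Deadenylation, the shortening of the poly(A) tail, is carried out by the CCR4-NOT complex, and Cnot4 encodes a RING-type ubiquitin ligase that associates with that complex. Cpeb1 encodes a protein that binds cytoplasmic polyadenylation elements in 3′UTRs through its C-terminal RNA recognition motifs, and it can hold a tail short or have it lengthened by a cytoplasmic poly(A) polymerase. Each of these genes makes several mRNAs, and each listed event is one of the points at which those mRNAs part.

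The sequences of the 4 events are shown because the lists give only position and type. Their splice signals were read from the reference sequence and are not a result of the knockdown. Capitals mark the bases that are kept or left out, and lower case marks what lies beside them. In the Tnrc6a cassette exon, the Cnot4 cassette exon and the Cpeb1 acceptor the lower case before the capitals is intron. After the capitals it is intron for the cassette exons and exon for Cpeb1. In the Cnot4 donor the intron was not read, and lower case is the exon before and the next exon, as spliced in Cnot4-202. All are GRCm38 (mm10) reference sequence from GENCODE transcripts, 5′ to 3′ on the strand of the gene.
Tnrc6a cassette exon, chr7:123175426-123175458, plus strand: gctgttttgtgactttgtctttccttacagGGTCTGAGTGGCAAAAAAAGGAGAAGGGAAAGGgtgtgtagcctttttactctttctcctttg
Cnot4 cassette exon, chr6:35024128-35024340, minus strand: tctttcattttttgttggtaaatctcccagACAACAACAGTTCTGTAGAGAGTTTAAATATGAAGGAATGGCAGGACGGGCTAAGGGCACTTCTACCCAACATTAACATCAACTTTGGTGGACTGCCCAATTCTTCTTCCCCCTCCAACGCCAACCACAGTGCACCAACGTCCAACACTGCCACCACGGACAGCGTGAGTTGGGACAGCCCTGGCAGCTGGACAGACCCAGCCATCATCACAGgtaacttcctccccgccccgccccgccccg
Cnot4 alternative donor, chr6:35064889-35064897, minus strand: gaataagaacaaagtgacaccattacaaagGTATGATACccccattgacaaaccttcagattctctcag
Cpeb1 alternative acceptor, chr7:81372201-81372203, minus strand: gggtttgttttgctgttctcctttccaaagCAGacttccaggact

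Tnrc6a, the Argonaute-binding scaffold (ENSMUSG00000052707, chr7:123123885-123195296, plus strand), had its 33-nt exon 9 (of 24, transcript Tnrc6a-201) listed in list 1 and absent from lists 2 and 3. The exon is coding, begins at a codon boundary and adds 11 codons from codon 1162 of 1896, or after 61.2% of the coding sequence. Leaving it out therefore keeps the reading frame. In the annotation, 2 transcripts hold it as an exon of its own and 3 splice past it. Those that hold it are Tnrc6a-201 and Tnrc6a-205, the second of which is annotated with an incomplete start. Those that lack it are Tnrc6a-203 and Tnrc6a-207, both incomplete, and Tnrc6a-210, annotated as a target of nonsense-mediated decay. In Tnrc6a-210 the annotated coding sequence already ends in an earlier exon, upstream of this one. Only Tnrc6a-207 and Tnrc6a-210 join the exons on either side of it. Tnrc6a-203 leaves out those neighbouring exons as well. It lies between introns of 1106 and 1365 nt. It was shorter than most listed cassette exons, with 63 of 439 shorter still (14.4%) and a median of 81 nt. Its base composition stood apart: 28 of its 33 bases are purines (84.8%), against a median of 51.9% over the 433 listed cassette exons that could be read, of which 3 had a higher purine share. The 11 other listed cassette exons of 33 nt ranged from 36.4% to 72.7%, with a median of 54.5%. The intron before it ends in CAG, and 14 of its last 20 bases are pyrimidines (70%).

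Cnot4, the ubiquitin ligase of the deadenylase complex (ENSMUSG00000038784, chr6:35022065-35133724, minus strand), had an event in 2 lists, but a different one in each. The larger, a 213-nt cassette exon, was in list 1 and absent from lists 2 and 3. It is exon 11 of 12 in Cnot4-203 and adds 71 codons from codon 540 of 710. It was one of the longest listed cassette exons, with 18 of 439 longer (95.7% shorter). Only Cnot4-203 holds it as an exon of its own, while Cnot4-202 and Cnot4-206 (642 and 639 codons) skip it. An intron of 26721 nt precedes the exon, longer than the intron before all but 10 of the 433 listed cassette exons read (median 1967 nt), and one of 695 nt follows it. That long intron contains the alternative last exons of Cnot4-201 and Cnot4-207, which end before the cassette exon is reached.

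The other Cnot4 event, an alternative donor of 9 nt, was in list 3 and absent from lists 1 and 2. It lengthens exon 7 of Cnot4-202 from its 3′ side (134 nt with it) and adds a net 3 codons in frame near codon 271 of 642. It splits a codon, which reads AGC without the 9 nt and becomes AGG with them. The 9 nt open with GT, so the bases that the long form keeps as exon begin with the donor of the short form. Cnot4-201 and Cnot4-202 hold the 9 nt, and Cnot4-203, Cnot4-206, Cnot4-207 and Cnot4-208 lack it. The coding mRNAs thus come in pairs that differ by these 3 codons (575 and 572, 642 and 639), and the mRNA with the 213-nt exon, Cnot4-203, lacks the 9 nt. Of 93 listed donor events, 22 were shorter and the median was 24 nt.

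Cpeb1, the cytoplasmic polyadenylation protein (ENSMUSG00000025586, chr7:81347026-81455465, minus strand), had the only event of the 4 that stood in more than 1 list, beside 19.6% of all distinct events. A 3-nt alternative acceptor at exon 3 of 12 (Cpeb1-209) was in lists 1 and 2 and absent from list 3. The intron ends in AAG and the next 3 bases are CAG, so a pair of acceptors stands side by side, and the exon begins either with CAG or with the base after it. The long form has 562 codons and the short form (Cpeb1-201) 561, and the extra codon falls at codon 64, after 11.3% of the coding sequence, ahead of the RNA recognition motifs. Of the annotated transcripts, 1 holds the 3 bases and 4 lack them. The intron before this acceptor is 63999 nt long, and 1 of the 90 listed acceptor events read had a longer one (median 932 nt). Acceptor shifts of 3 nt were common in the lists, at 36 of 97 (37.1%). Of the 34 whose bases could be read, 33 ended in AG as this one does, the exception being Eftud2.

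**Figure D1:**
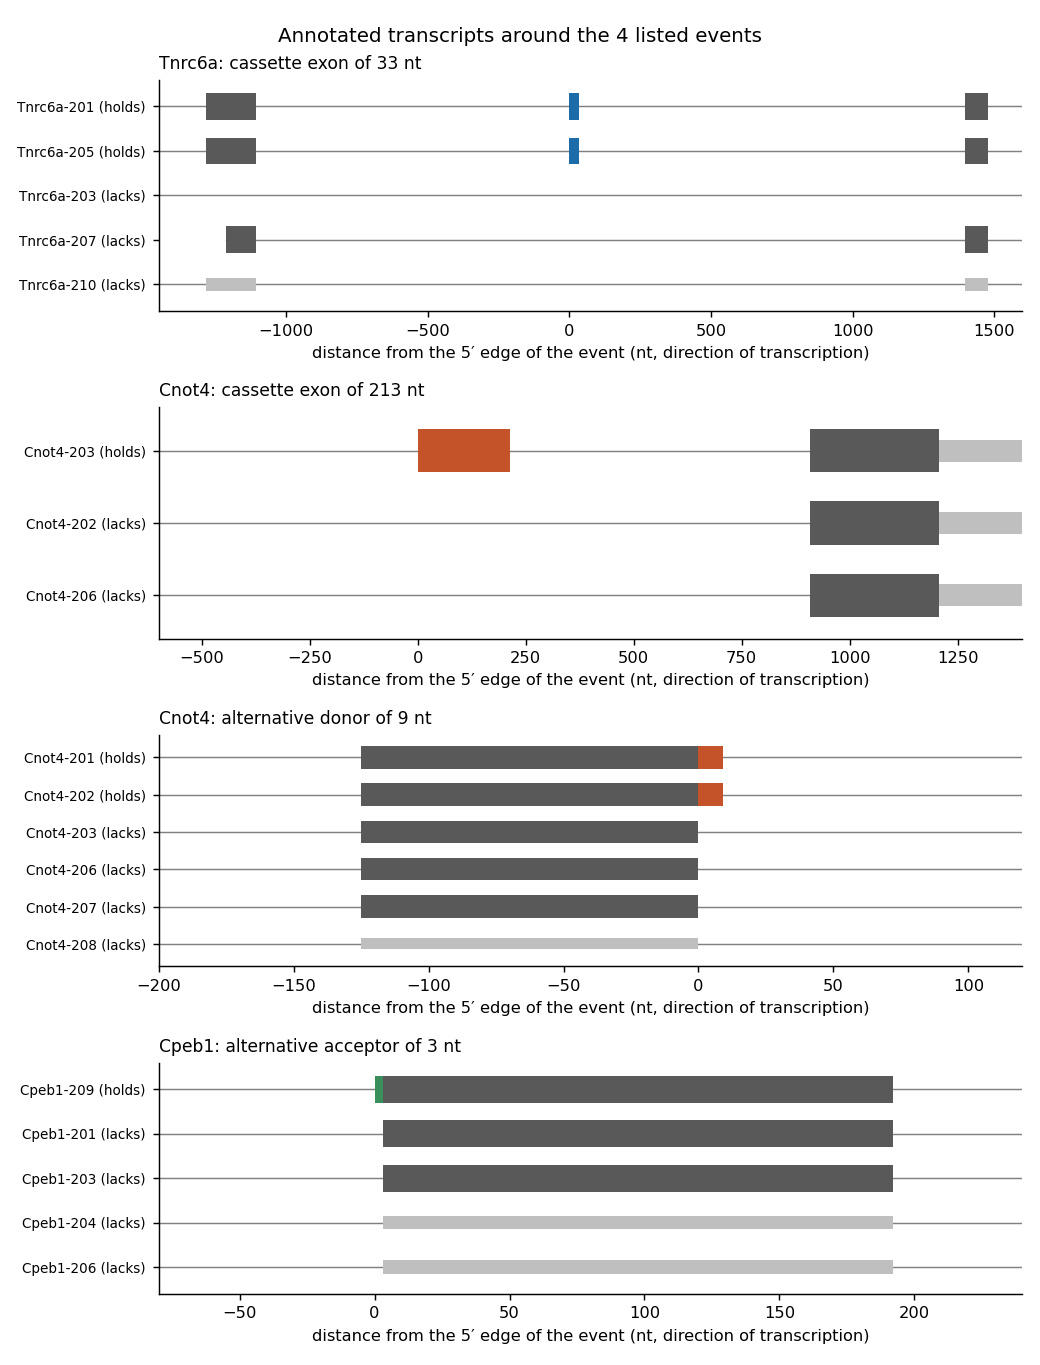
Annotated transcripts that hold or lack each of the 4 events, with distance from the 5′ edge of the event in nt on the x axis. Tall dark boxes are coding exon, low light boxes untranslated or non-coding exon, lines intron and coloured boxes the listed event. The Tnrc6a exon of 33 nt stands alone between introns of 1106 and 1365 nt, while the 9-nt and 3-nt events extend an exon that every transcript shown keeps.

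These events had in common a property that the rule did not use. All 4 lie in coding sequence and all 4 have a length divisible by 3, so each changes the length of the protein by whole codons (11, 71, 3 and 1). Over the lists a length divisible by 3 was held by 270 of 439 cassette exons (61.5%), 44 of 93 donor events (47.3%) and 73 of 97 acceptor events (75.3%). Of the 611 listed cassette, donor and acceptor events that an annotated transcript holds, 379 (62%) lay wholly in coding sequence. No test was made over 4 events. They fall at different depths in their proteins, the Cpeb1 codon near the start, the Cnot4 donor at 42.2% of the coding sequence, the Tnrc6a exon at 61.2% and the Cnot4 exon at 76%.

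**Figure D2:**
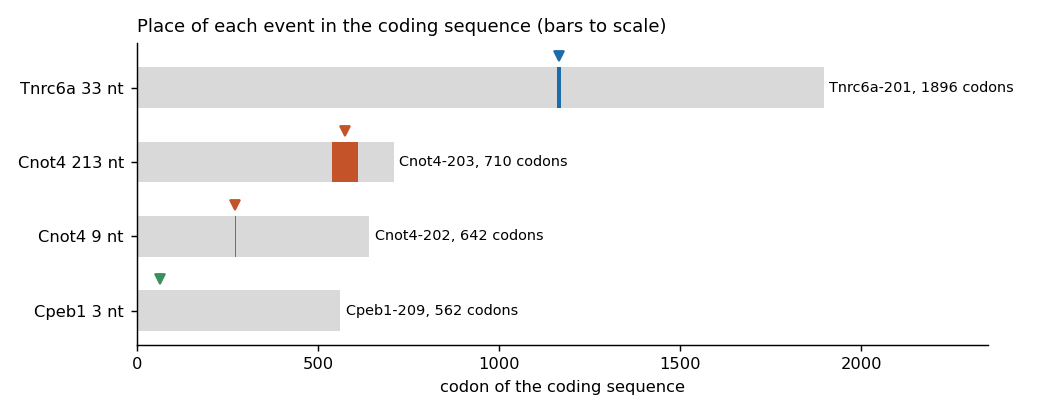
Coding sequence of the transcript that holds each event, as a grey bar in codons to scale, with the event coloured and marked by a triangle. The Cpeb1 codon lies at 11.3% and the Cnot4 cassette exon at 76% of the coding sequence, and the bars for 9 nt and 3 nt are thinner than the triangles.

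**Figure D3:**
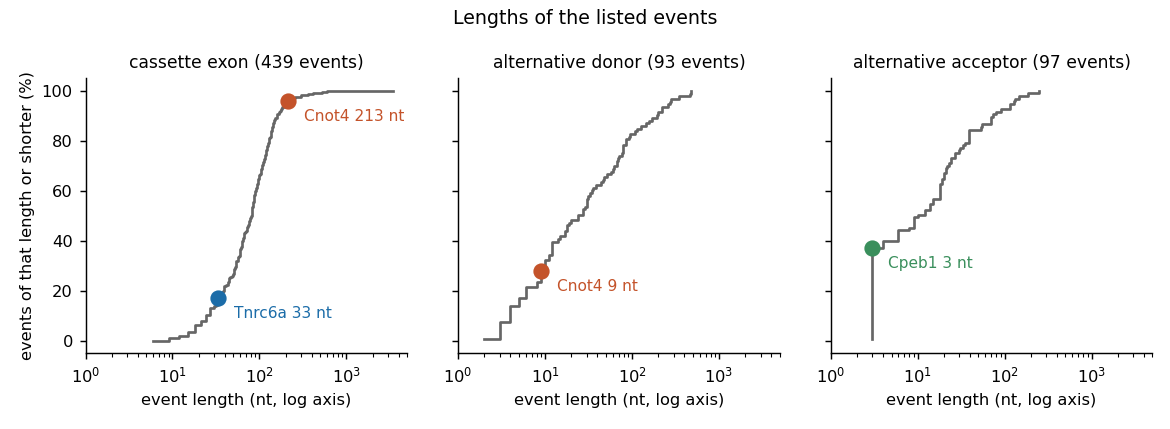
Cumulative share (%) of listed events by length in nt (log axis), for cassette exons, donors and acceptors, with the events of Tnrc6a, Cnot4 and Cpeb1 as coloured points. The Cnot4 exon of 213 nt lies near the top of the cassette exons, and the Cpeb1 shift of 3 nt has the shortest length of any acceptor event.

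The strength of the splice signals differed between the members. A weight-matrix score was used, which sums over positions how much more often a base is found at annotated sites than at random, in bits. Sites could be scored only where a transcript that keeps the intron gives its bases (21344 acceptors and 23782 donors), so the scale comes from such introns. The Tnrc6a acceptor scored 12.95, above 94.7% of annotated acceptors (median 8.49). Its donor scored 6.88, above 39.2% of donors (median 7.69). Among the 67 donors of listed cassette exons that could be scored, the Tnrc6a donor stood above 62.7%. For the Cnot4 cassette exon the acceptor ranked below the donor, with an acceptor of 5.09, above 15.9%, and a donor of 9.15, above 75.3%. The last 20 intron bases before it hold 12 pyrimidines (60%). The acceptors of Cpeb1 were close to each other, at 8.43 for the long form (above 49.2%) and 7.30 for the short form (above 35.3%). The short-form donor of Cnot4 scored 8.71, above 68.6% of donors, and its long-form donor was not read. No score carries a replicate error, since each is a property of the reference sequence.

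**Figure D4:**
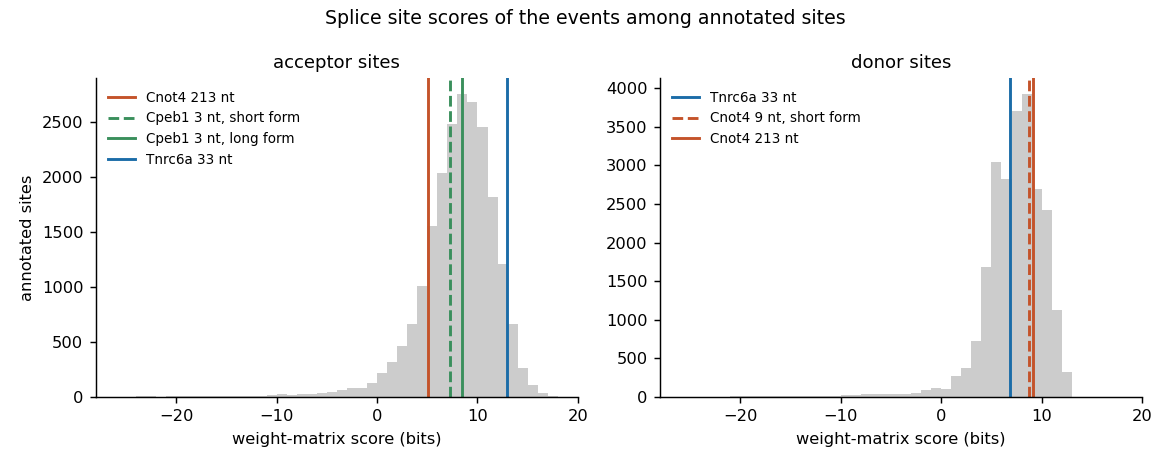
Weight-matrix scores in bits of annotated acceptor and donor sites (grey bars, number of sites) with the sites of the members as coloured lines, dashed for the short form of a shifted site. The Tnrc6a acceptor (12.95) lies in the upper tail and the Cnot4 cassette acceptor (5.09) in the lower part, while the Cpeb1 acceptors (8.43 and 7.30) lie near the middle.

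The hexamer TGCATG, which RBFOX splicing factors bind, was searched for on the transcribed strand in the 200 intron bases on each side of the cassette exons. It was present beside 0 of the 2 cassette exons of Tnrc6a and Cnot4, and beside 472 of 3020 annotated exons with readable flanks (15.6%), and no match says only that these letters are not in these windows.

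List 1 held 3 of the 4 events, or 1.11% of its 270 distinct events. List 2 held 1 (0.379% of 264) and list 3 held 1 (0.389% of 257). These counts are too small to read as an uneven spread. The same event stood in more than 1 list for 1 of the 4 (Cpeb1), too small a count to read against the 19.6% of all events. Without list 1, 2 events (those of Cpeb1 and the Cnot4 donor) are left, and without list 1 or list 2 no event stands in more than 1 list.

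The same pathway was looked at beyond these genes through 4 lists of genes for microRNA silencing, deadenylation, cytoplasmic polyadenylation, and decapping and decay. Of 100 genes with more than 1 exon, 6 had an event (6%, 95% Wilson interval 2.78% to 12.5%), where 578 of the 20620 such protein-coding genes had one in any list (2.80%). Tnrc6a, Cnot4 and Cpeb1 had to be among the 6. Of the 97 others, 3 had an event (3.09%, 1.06% to 8.7%), a share near that of all genes. Fxr1, an RNA-binding protein of the fragile X family, had a 58-nt coding exon in list 2, whose length is not divisible by 3 and which no annotated transcript that reaches it skips. Pum2, a Pumilio protein that brings CCR4-NOT to mRNA, had a 6-nt donor shift in list 1. Xrn1, the exonuclease that degrades mRNA from its 5′ end after decapping, had a 12-nt donor shift in list 2. By list, the counts were 2 of 31 genes for microRNA silencing, 2 of 24 for deadenylation, 1 of 23 for cytoplasmic polyadenylation and 1 of 22 for decapping and decay. The first 3 of these counts each include a member that had to be there. Outside the members the genes with an event were 1, 1, 0 and 1. Among these 97 genes an event was listed for 0 of the 2 other Tnrc6 genes, 0 of the 3 other Cpeb genes, 0 of the 10 other genes named Cnot and 0 of the 4 Argonaute genes, numbers too small to read against 2.80%. All 7 events in these 6 genes lay in coding sequence, but 4 of them are the members already described. The other 3 are too few to read against that 62% of listed events. Of those 3, the Pum2 and Xrn1 donor shifts had a length divisible by 3, beside 47.3% of listed donor events, and the Fxr1 exon did not. The 6 genes had a median of 19.5 exons in their longest model, against 14 for the others on the lists, and the part of exon number in these counts was not tested.

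**Figure D5:**
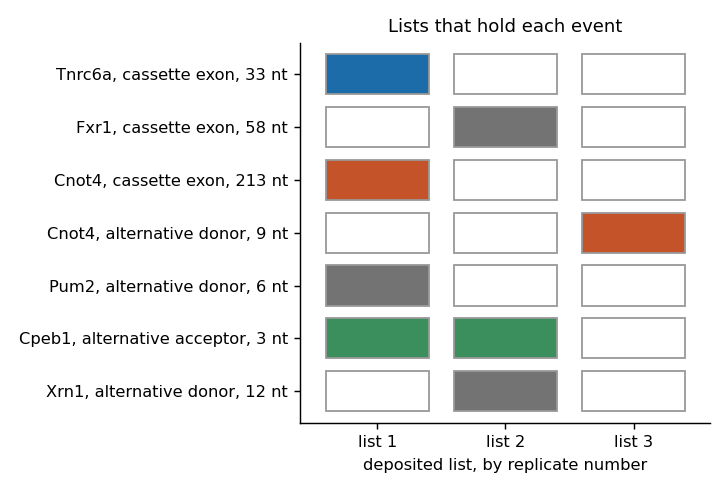
The 7 events in genes of the 4 pathway lists (rows) and the deposited lists that hold them (columns, filled where listed). The Cpeb1 shift of 3 nt is filled in lists 1 and 2, and each other event is filled in 1 list.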

How the data were processed

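GEO's labels give the grouping into control (3) and SFPQ knockdown (3) samples of P19 RNA. The labels name a directional NEBNext kit, and the study's methods a stranded TruSeq kit. No counts were used here. The authors deposited positions and type codes of events, which the study's material credits to SpliceTrap, a program that estimates exon inclusion, with cutadapt, Bowtie2, STAR and mm10 in the submitters' processing notes. Tool versions and the listing threshold are not given in the sources used here.

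Here 1 was added to each start, since 433 of 439 cassette events then matched annotated edges. Repeated lines (5, 4 and 5) were counted once, and 1 line with no readable start was left out. An end written with a decimal (1 line) was cut to a whole number. Each event went to the GENCODE M21 gene (GRCm38) that contained it and matched most of its edges (at least 1). Sequences were read from GENCODE transcripts through their annotated positions. Weight matrices (pseudocount 1) used 20 intron and 3 exon bases for acceptors, and 3 exon and 6 intron bases for donors. They were meant for all annotated internal exons but, with transcripts only, covered those whose intron bases another transcript holds. Event matching was checked on 200 exons drawn from the same annotation, which checks the code and not the listed events. Scores were checked on simulated data. The shares of pathway genes with an event have 95% Wilson intervals, which cover counting only. Other shares are given without one, and no test was run on the members. The members and gene lists were chosen with earlier results of these data known. Named were the members, every gene of the lists with an event, and events of a member's type and length. Of 102 list names, Nanos1 (1 exon) and Papd4 (an older symbol of Tent2, itself listed) were not matched. Scripts ran on Python 3.11.15 with scipy 1.17.1, numpy 2.4.6 and, for plots, matplotlib 3.10.9.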

Additional observations from a re-analysis of the deposited data

How the results depend on the processing

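The 4 member events, the 1 event in more than 1 list and the 6 pathway genes were the same when both edges had to match and when lying in the locus was enough, and counting repeated lines left the 4 events. Leaving out each replicate list in turn gave 2 to 4 member events, 0 to 1 events in more than 1 list and 4 to 6 pathway genes. Counting genes with any event in more than 1 list gave 2 (Cnot4 and Cpeb1) in place of 1, because Cnot4 had different events in lists 1 and 3, and overlap by 1 base left it at 1. With events in more than 1 list only, 1 pathway gene was left (Cpeb1), and with cassette exons only, 3. Among the listed cassette exons that could be scored (67 donors and 62 acceptors), the Cnot4 donor stood at 89.6% and the Tnrc6a donor at 62.7%. Their acceptors moved by under 10 points there. With exons of the longest coding transcript both kinds of site moved by under 10 points, as did the acceptors with 15 intron bases. A window of 100 bases also held no TGCATG. No paired analysis was possible because each deposited list is the outcome of a comparison and no test was run. The lists hold no reads, so how depth bears on which events were listed is unknown.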

Other observations

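Events of the same type and length as the members were found in other genes. The 35 other acceptor shifts of 3 nt stood in more than 1 list in 6 genes: Tank, a signalling adaptor, in all 3 lists, and Mgrn1, Ephb2, Uqcc1, Rbmx and Taz in 2 lists each. The Cpeb1 shift shared lists 1 and 2 with those of Mgrn1, a ubiquitin ligase, and Ephb2, an ephrin receptor.

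The 11 other cassette exons of 33 nt included those of the kinase genes Map2k4 and Camk2g, the cilium gene Wdr35 and Whrn, a scaffold of hair cells, each in 2 lists. The 3 other donor shifts of 9 nt lay in Prps2, an enzyme of nucleotide synthesis, in all 3 lists, and in Cuedc1 and Gatad2a in 1 list each. No other listed cassette exon had 213 nt.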
